A study of Mus musculus with 3 samples.

Results

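The forkhead (Fox) transcription factor family was read in mouse mesenchymal C3H10T1/2 cells. Its members were taken by name, as the probe sets annotated with a single gene symbol made of Fox, a subfamily letter from a to s, a number and at most 1 more letter. This gave 82 probe sets of 37 genes, out of 34945 probe sets of 18193 genes with a single symbol. RNA was hybridized to Affymetrix mouse genome arrays from C3H10T1/2 cells transduced with a retrovirus carrying Venus-Mkx (Mkx is the homeobox factor Mohawk, and Venus a fluorescent protein), from C3H10T1/2 cells transduced with Venus alone and from untransduced C3H10T1/2 cells. Each condition had 1 array. The vector was pMIGR, which drives expression from a retroviral promoter, virus was added in medium with puromycin, and the cells, an established line from mouse embryo, were grown in α-MEM with serum. No difference has a replicate check and no p-value is given. An effect of the vector, of the culture and of the array cannot be told apart, and having so few arrays limits precision throughout.

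Forkhead proteins share a winged-helix DNA-binding domain, and their subfamilies act in very different settings. FoxO factors respond to insulin and growth factors: Akt phosphorylates them and they leave the nucleus. FoxM1 drives genes of mitosis. FoxC, FoxD, FoxF, FoxL and FoxS factors are known from mesoderm and mesenchyme, including the sclerotome from which the spine and its discs form. FoxP factors are mostly repressors that pair through a leucine zipper, and FoxA factors open chromatin in endoderm and in the notochord.

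The deposited values were log2 probe set values. The median of all values, 4.34, was used as a floor, and genes with at least 1 value at or above it are termed measured. Where a gene had several probe sets, the one with the highest average was used, and a 2-fold limit (1 on the log2 scale) had to be reached against both Venus and C3H10T1/2, in the same direction, for a gene to count as higher or lower. Values of different probe sets were not set against each other as levels. Mkx (1437492_at) had a log2 value of 2.71 on the array labelled Venus-Mkx, 7.43 on Venus and 6.88 on C3H10T1/2, which goes against the label. Whether this probe set lies within the coding sequence carried by the vector was not known here, so the label is kept as given and every direction below rests on it. Of 13 mesenchymal marker genes on the array, 12 were measured, and the log2 of the summed signal of the 13 genes was 15.99 on the array labelled Venus-Mkx, 15.80 on Venus and 15.73 on C3H10T1/2. The measured mesenchymal markers went both ways, with 8 above Venus and 4 below it at the probe sets used. Lowest of them was Pdgfra, a receptor gene named after its values were seen, at −0.69 against Venus and −1.01 against C3H10T1/2. Col1a1 and Thy1, a collagen and a surface marker gene, were at least 2-fold above both controls at the probe sets used. The other measured probe set of Col1a1 differed from Venus by 0.82. Of 10 macrophage markers 3 were measured, while Adgre1, Ptprc and Cd68 were under the floor. At the probe sets used, Csf1r and Lyz2 were at least 2-fold above both controls. Cd14 was below them by less than 2-fold, with −0.50 from Venus and −0.13 from C3H10T1/2. The 3 measured probe sets of Csf1r differed from Venus by 0.21 to 1.23. The log2 of the summed signal of the list was 8.61 on the array labelled Venus-Mkx, 7.97 on Venus and 7.55 on C3H10T1/2. Of 10 endothelial markers 3 were measured, with Tek at least 2-fold above and Erg at least 2-fold below both controls. Tek on Venus (4.02) and Erg on the array labelled Venus-Mkx (2.81) were under the floor, so these differences are not exact. Pecam1 and Cdh5 were under the floor, and the same sum over the 10 markers was 7.40 (labelled Venus-Mkx), 7.55 (Venus) and 8.07 (C3H10T1/2). Just 2 of 10 epithelial and 2 of 10 T cell markers were measured, with sums of 8.25 (labelled Venus-Mkx), 7.91 (Venus) and 7.76 (C3H10T1/2) for the epithelial list and of 7.68 (labelled Venus-Mkx), 7.53 (Venus) and 7.68 (C3H10T1/2) for the T cell list. The part of these markers in the differences below was not tested.

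Forkhead genes lay both above and below the controls. On the array labelled Venus-Mkx, Foxp2 was higher than in both controls, and Foxd1 and Foxc2 were lower. Foxp1 and Foxn3 were at least 2-fold below Venus only, whereas Foxo3, Foxo4 and Foxp4 were above both controls by less than 2-fold. Of the 37 genes, 22 (59.5%) were measured, against 61.4% of all genes. Of these 22, 1 gene (4.55%) was at least 2-fold higher than both controls, beside 6.82% of the 11169 measured genes, and 2 genes (9.09%) were lower, beside 5.34%. Against Venus alone, 1 gene was at least 2-fold higher, beside 7.42% of measured genes, and 4 genes (18.2%) were lower, beside 6.68%. These shares rest on 1 to 4 genes. The median log2 difference from Venus was 0.00 for the 22 genes and 0.00 for all measured genes, with an SD over genes of 0.84 and 0.94.

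**Figure D1:**
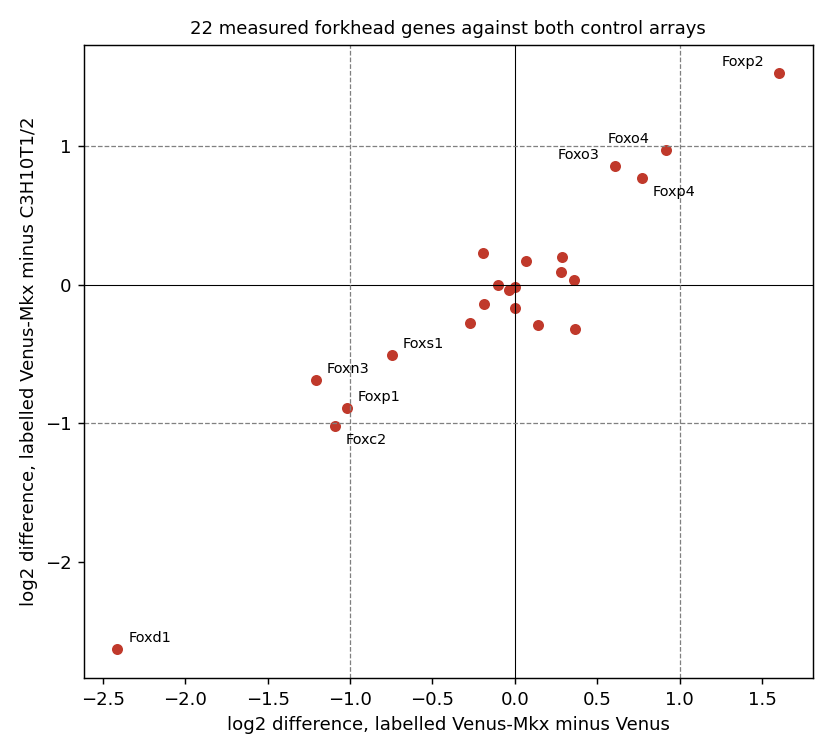
Each point is 1 of the 22 measured forkhead genes, placed by the log2 value on the array labelled Venus-Mkx minus that on Venus (horizontal) and minus that on C3H10T1/2 (vertical); dashed lines mark 2-fold. Foxp2 lies above 2-fold on both axes and Foxd1 and Foxc2 below it, and the axes share the Venus-Mkx array, so the points line up in part by construction.

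Between the controls, none of the 22 genes was at least 2-fold higher in Venus than in C3H10T1/2, beside 1.49% of all measured genes, and none was lower, beside 0.555%, shares at which a count of 0 among 22 genes says nothing particular to the family. The lowest difference was −0.68 for Foxf1, and the highest was 0.52 for Foxn3. The SD over the 22 genes was 0.27 between the controls, against 0.34 over all measured genes, whereas the median absolute difference was 0.12 for the 22 genes and 0.10 for all measured genes.

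**Figure D2:**
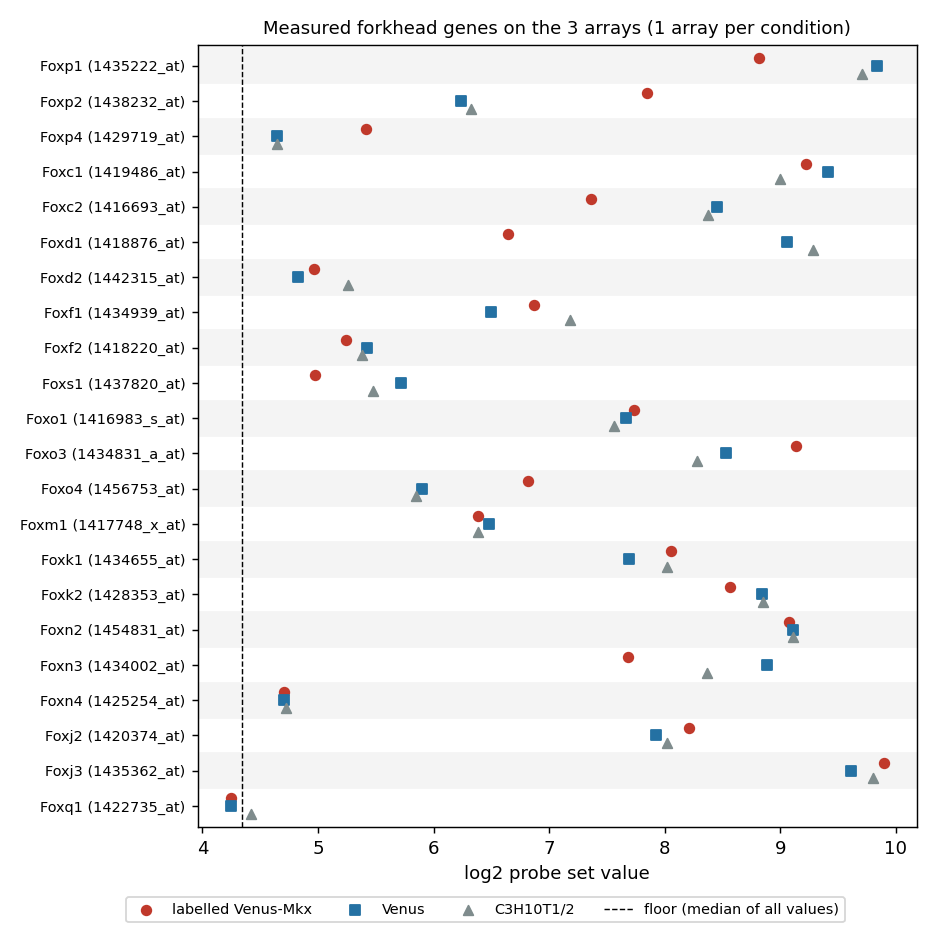
Log2 probe set values (horizontal) of the 22 measured forkhead genes on the array labelled Venus-Mkx (circles), on Venus (squares) and on C3H10T1/2 (triangles), with 1 array each and the floor of 4.34 as a dashed line. The red circle of Foxp2 lies to the right of both controls, and those of Foxd1, Foxc2, Foxp1 and Foxn3 lie to the left.

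Among FoxP factors, Foxp1 and Foxp2 went in opposite directions. Foxp2, known for its role in the circuits of speech and song and in lung epithelium, had a log2 value of 7.85 on the array labelled Venus-Mkx, 6.24 on Venus and 6.32 on C3H10T1/2 (1438232_at). The array labelled Venus-Mkx stood above both controls, by 3.04-fold and 2.88-fold, and the difference of 1.61 from Venus exceeded that of 96.0% of measured genes. The other measured probe sets of Foxp2 read the same direction: 1438231_at had 6.81 on the array labelled Venus-Mkx, 5.23 on Venus and 5.40 on C3H10T1/2, and 1440108_at had 6.63 (labelled Venus-Mkx), 5.29 (Venus) and 5.18 (C3H10T1/2). The remaining 3 of its 6 probe sets were below the floor on all arrays.

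Foxp1, a repressor that acts in B cells, heart and bone marrow stroma, had 8.81 on the array labelled Venus-Mkx, 9.83 on Venus and 9.71 on C3H10T1/2 (1435222_at). It was 2.03-fold lower than Venus and 1.86-fold lower than C3H10T1/2, so the gene was just outside the 2-fold limit against C3H10T1/2. All 8 probe sets of Foxp1 were measured and all 8 read lower than both controls, with log2 differences from Venus between −1.33 and −0.08 and a median of −0.92. The lowest differences belonged to 1421141_a_at, which had 7.47 on the array labelled Venus-Mkx, 8.80 on Venus and 8.83 on C3H10T1/2, and to 1421142_s_at, which had 7.16 (labelled Venus-Mkx), 8.40 (Venus) and 8.46 (C3H10T1/2). At 1443258_at, near the floor, the values were 4.83 (labelled Venus-Mkx), 4.91 (Venus) and 4.91 (C3H10T1/2). These probe sets read 1 gene, so they are no replicates of the condition.

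RefSeq gives Foxp1 several start sites, and 3 promoter windows of GRCm38.p6, all on the minus strand, are shown because every probe set of the gene read lower. Each runs 5′ to 3′ over the 250 bases before and 50 after a start site. Capitals mark the reverse complement of TTTGAA, a motif called the cell cycle homology region that is known from promoters of mitotic genes.
Foxp1, chr6:99520944-99521243: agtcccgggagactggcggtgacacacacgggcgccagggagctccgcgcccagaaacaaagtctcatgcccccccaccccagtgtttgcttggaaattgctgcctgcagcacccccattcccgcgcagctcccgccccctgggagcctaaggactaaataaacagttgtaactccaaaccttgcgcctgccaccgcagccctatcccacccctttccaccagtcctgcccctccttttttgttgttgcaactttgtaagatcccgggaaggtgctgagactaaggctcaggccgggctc
Foxp1, chr6:99266466-99266765: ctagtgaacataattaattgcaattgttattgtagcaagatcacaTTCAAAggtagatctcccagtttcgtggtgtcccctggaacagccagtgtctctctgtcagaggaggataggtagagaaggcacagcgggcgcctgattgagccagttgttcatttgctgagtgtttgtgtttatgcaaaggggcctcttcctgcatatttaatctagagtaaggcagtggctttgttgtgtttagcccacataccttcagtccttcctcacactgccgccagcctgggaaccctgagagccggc
Foxp1, chr6:99028249-99028548: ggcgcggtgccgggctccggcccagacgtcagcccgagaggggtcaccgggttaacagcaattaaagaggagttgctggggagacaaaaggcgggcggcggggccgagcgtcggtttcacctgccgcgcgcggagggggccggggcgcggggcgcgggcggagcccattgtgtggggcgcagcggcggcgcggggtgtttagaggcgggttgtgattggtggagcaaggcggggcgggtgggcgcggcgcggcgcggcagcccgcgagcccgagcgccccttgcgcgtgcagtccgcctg
The windows differ in base composition, with a GC content of 60.3%, 48.7% and 75.3% in the order shown. Of these windows only the middle one held TTTGAA, at position −205 from the start site. The start site in use in these cells was not measured, since the arrays read the transcripts by probe sets.

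Foxp4 was above both controls, with 5.42 on the array labelled Venus-Mkx, 4.65 on Venus and 4.65 on C3H10T1/2 (1429719_at), a 1.70-fold difference from each. It lay close to the floor, and its other 2 probe sets were below the floor on all arrays. Foxp3, the factor of regulatory T cells, was not measured.

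**Figure D3:**
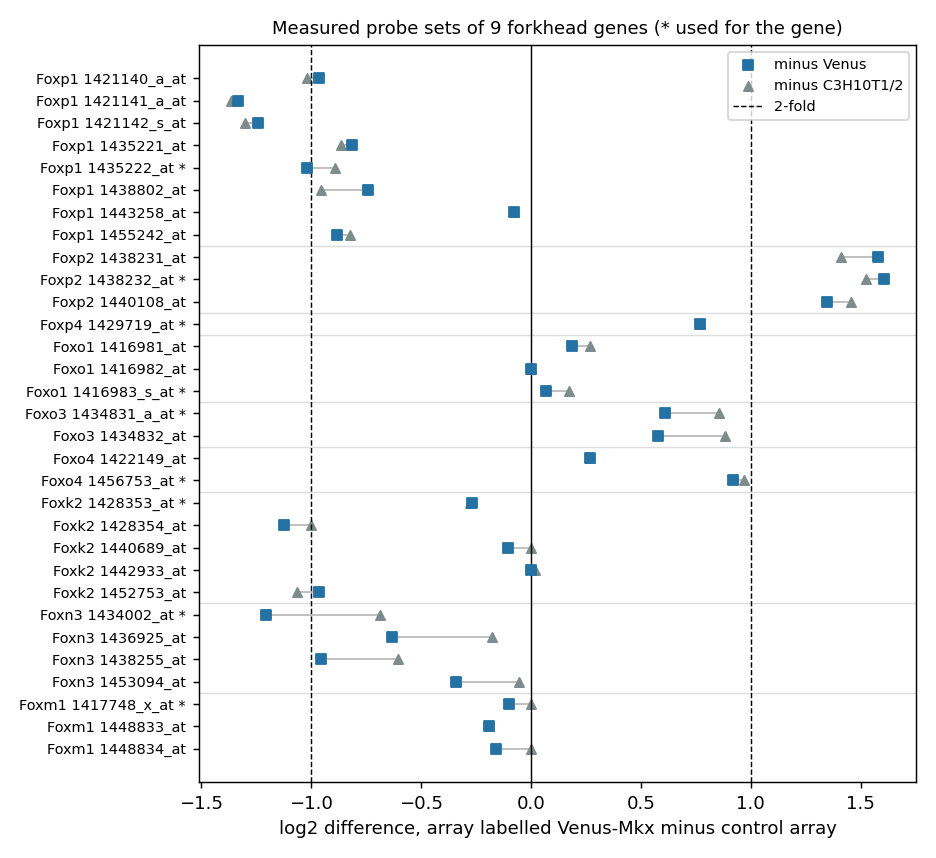
Log2 value on the array labelled Venus-Mkx minus that on Venus (squares) or on C3H10T1/2 (triangles) for every measured probe set of 9 forkhead genes; an asterisk marks the probe set used for the gene and dashed lines mark 2-fold. All 8 probe sets of Foxp1 lie left of 0 and all 3 of Foxp2 lie beyond 2-fold, whereas those of Foxk2 spread from −1.12 to 0.00 against Venus.

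Of the 8 mesodermal and mesenchymal factors, 7 were measured, and Foxd1 and Foxc2 were lower than both controls. Foxd1, a factor of stromal progenitors in the kidney, had the lowest difference of the family. Its only probe set, 1418876_at, read 6.65 on the array labelled Venus-Mkx, 9.06 on Venus and 9.28 on C3H10T1/2. The array labelled Venus-Mkx was 5.32-fold lower than Venus and 6.20-fold lower than C3H10T1/2, and 1.42% of all measured genes had a lower difference from Venus. Foxc2, needed for the sclerotome and for lymphatic valves, had 7.36 on the array labelled Venus-Mkx, 8.45 on Venus and 8.38 on C3H10T1/2 (1416693_at). It was 2.13-fold and 2.02-fold lower, just inside the limit. After quantile normalization of the 3 arrays its log2 difference from C3H10T1/2 was −0.98, so Foxc2 was no longer counted.

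The promoter of Foxd1 is printed as that of the member with the lowest difference (GRCm38.p6, plus strand, 250 bases before to 50 after the start site, 5′ to 3′). With a GC content of 57.7%, it held none of the motifs searched, so no base is in capitals.
Foxd1, chr13:98353995-98354294: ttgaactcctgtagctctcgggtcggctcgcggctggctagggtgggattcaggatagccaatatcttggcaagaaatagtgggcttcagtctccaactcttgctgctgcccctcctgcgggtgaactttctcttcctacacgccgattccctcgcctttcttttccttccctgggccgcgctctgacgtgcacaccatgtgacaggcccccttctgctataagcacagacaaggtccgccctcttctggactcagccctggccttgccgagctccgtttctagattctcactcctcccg
The sequence tables used here gave no window for Foxc2.

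Foxs1, known from pericytes and other perivascular cells, was below both controls by less than 2-fold, with 4.97 on the array labelled Venus-Mkx, 5.72 on Venus and 5.48 on C3H10T1/2 (1437820_at). Foxc1, the close relative of Foxc2, had 9.22 (labelled Venus-Mkx), 9.41 (Venus) and 8.99 (C3H10T1/2) (1419486_at). The other probe set of Foxc1, 1419485_at, had 9.28 (labelled Venus-Mkx), 9.14 (Venus) and 8.52 (C3H10T1/2), so the gene lay below or above Venus depending on the probe set. Foxf1, which acts downstream of hedgehog signals in gut and lung mesenchyme, had 6.87 on the array labelled Venus-Mkx, between 6.50 on Venus and 7.18 on C3H10T1/2 (1434939_at). Foxd2, with 4.97 (labelled Venus-Mkx), 4.83 (Venus) and 5.26 (C3H10T1/2), also lay between the controls, and Foxf2 had 5.24 (labelled Venus-Mkx), 5.43 (Venus) and 5.38 (C3H10T1/2). Foxl1 was not measured. In the GRCm38.p6 assembly Foxf2 is next to Foxc1 and Foxq1 among protein-coding genes, and Foxc2 is next to Foxl1. Foxl1 was below the floor on all arrays, and Foxf2, Foxc1 and Foxq1 were within 2-fold of both controls.

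All 3 FoxO genes on the array, Foxo1, Foxo3 and Foxo4, were measured, and none passed 2-fold against both controls. Foxo3, a factor of stress resistance and quiescence, had 9.14 on the array labelled Venus-Mkx, 8.53 on Venus and 8.28 on C3H10T1/2 (1434831_a_at), and 1434832_at had 7.53 (labelled Venus-Mkx), 6.96 (Venus) and 6.65 (C3H10T1/2). Both probe sets placed the array labelled Venus-Mkx above the controls, by 1.53-fold and 1.81-fold at the probe set used. Foxo4 had 6.82 on the array labelled Venus-Mkx, 5.90 on Venus and 5.85 on C3H10T1/2 (1456753_at), which is 1.89-fold and 1.96-fold higher and just under the limit. Its other probe set, 1422149_at, had 4.66 (labelled Venus-Mkx), 4.39 (Venus) and 4.39 (C3H10T1/2), near the floor. Foxo1, the main FoxO factor of the insulin response, had 7.73 (labelled Venus-Mkx), 7.66 (Venus) and 7.56 (C3H10T1/2) (1416983_s_at). Another probe set of Foxo1, 1416982_at, had an equal value of 5.90 on all 3 arrays, as had 11 of the 82 forkhead probe sets and 24.6% of all probe sets.

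FoxO target genes lay on both sides of the controls. Of 29 measured targets, 3 were higher by at least 2-fold against both controls, 4 were lower and 22 were neither, beside 6.82% higher and 5.34% lower among all measured genes. The median difference from Venus was 0.00 for the list, as for all measured genes. Fbxo32, which encodes the ubiquitin ligase atrogin-1, had 8.94 on the array labelled Venus-Mkx, 6.16 on Venus and 5.16 on C3H10T1/2. Pink1, a mitochondrial kinase gene, had 8.10 (labelled Venus-Mkx), 6.76 (Venus) and 6.64 (C3H10T1/2). The third higher gene was Ulk1, a kinase gene of autophagy, with 8.09 (labelled Venus-Mkx), 6.91 (Venus) and 7.03 (C3H10T1/2). Its other measured probe set differed from Venus by only 0.08. In the other direction, Pdk4, a kinase that restrains pyruvate dehydrogenase, had 5.33 on the array labelled Venus-Mkx, 9.01 on Venus and 7.88 on C3H10T1/2, and the transcription factor gene Klf2 had 7.74 (labelled Venus-Mkx), 9.39 (Venus) and 9.43 (C3H10T1/2). Gadd45a, a DNA damage response gene, had 6.07 (labelled Venus-Mkx), 7.41 (Venus) and 7.64 (C3H10T1/2), and Cited2, a modulator of CBP and p300, had 9.12 (labelled Venus-Mkx), 10.65 (Venus) and 10.12 (C3H10T1/2). Known targets within 2-fold of Venus included Cdkn1b, the cell cycle inhibitor p27, with a difference of 0.81 from Venus and 1.26 from C3H10T1/2, and Insr, the insulin receptor gene, with 0.68 and 0.80. Others lay below both controls, such as Igf1r with −0.71 and −0.83 and Bnip3 with −0.70 and −1.20. Over the whole list, 14 targets lay above Venus and 14 below. Ulk1, Gadd45a, Cited2, Cdkn1b, Insr, Igf1r and Bnip3 were named after their values were seen. Foxp1 itself was on this list.

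The list for the PI3K and Akt pathway also held other regulators of FoxO. Of its 27 measured genes, 1 was higher than both controls and 2 were lower, counts near the 6.82% and 5.34% of all measured genes. The median difference from Venus was −0.03. Igf2, a growth factor gene upstream of this pathway, was the higher one, with 12.70 on the array labelled Venus-Mkx, 6.16 on Venus and 6.38 on C3H10T1/2. Its other measured probe set differed from Venus by 2.32. Igf1 had 6.62 (labelled Venus-Mkx), 8.72 (Venus) and 8.95 (C3H10T1/2), and Irs1, an adaptor of the insulin and IGF receptors, had 10.79 (labelled Venus-Mkx), 11.85 (Venus) and 12.18 (C3H10T1/2). Phosphorylation and location of the FoxO proteins were not measured by the arrays.

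Foxm1 differed from both controls by less than 2-fold at each measured probe set. It had 6.38 on the array labelled Venus-Mkx, 6.48 on Venus and 6.38 on C3H10T1/2 (1417748_x_at), and the other measured probe sets, 1448833_at and 1448834_at, differed from Venus by −0.19 and −0.16. None of 30 measured FoxM1 and G2/M target genes was at least 2-fold higher or lower than both controls, beside the 6.82% and 5.34% of all measured genes. At the probe sets used, their differences from Venus ran from −0.80 to 0.40, with a median of −0.04. Other probe sets of some of these genes read lower or higher. The lowest differences from Venus were −1.33 for Cks1b, −0.71 for Ccna2 and −0.62 for Top2a. At their highest probe sets, Nek2 and Tpx2 differed from Venus by 0.39 and 0.34. Cks1b thus passed 2-fold against Venus at 1 of its 2 measured probe sets. Plk1, a mitotic kinase gene, had 8.57 (labelled Venus-Mkx), 8.57 (Venus) and 8.55 (C3H10T1/2), and Cdk1 had 11.14 (labelled Venus-Mkx), 11.39 (Venus) and 11.49 (C3H10T1/2). The target genes named here were chosen after their values were seen. With 1 array per condition, these values do not show that proliferation was alike.

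**Figure D4:**
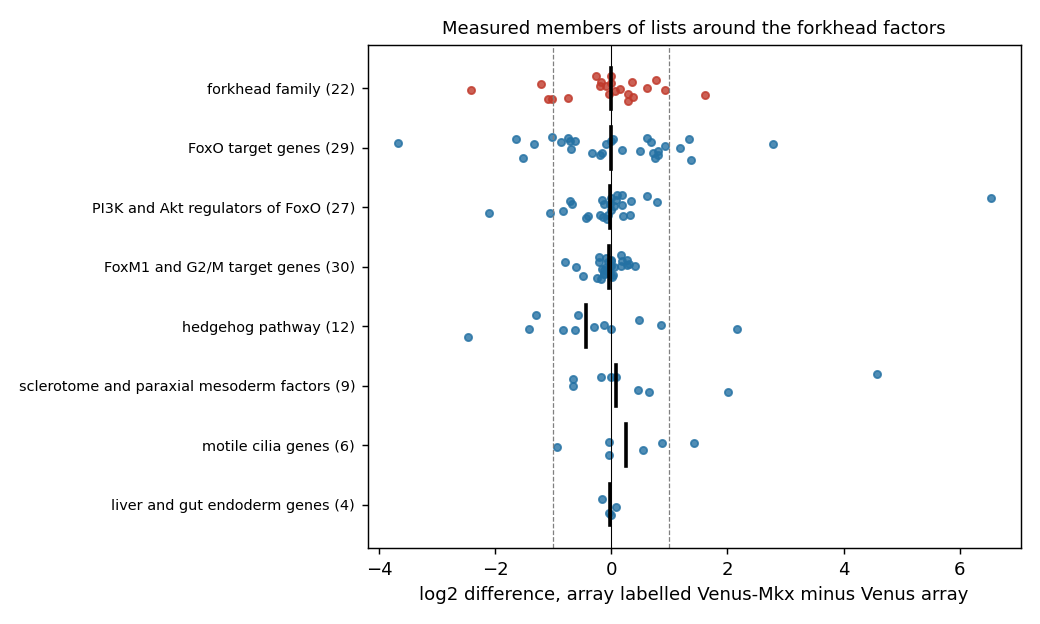
Log2 value on the array labelled Venus-Mkx minus that on Venus for the measured members of the forkhead family (red) and of 7 lists around it (blue), with the number of genes in brackets; the black bar is the median and dashed lines mark 2-fold. The medians run from −0.44 for the hedgehog pathway to 0.25 for motile cilia genes, and the FoxM1 and G2/M targets stay within 2-fold at the probe sets plotted.

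The FoxK, FoxN and FoxJ factors, which are broadly expressed apart from a few members, included 1 gene at least 2-fold below Venus. Foxn3, a repressor linked to cell cycle checkpoints, had 7.68 on the array labelled Venus-Mkx, 8.89 on Venus and 8.37 on C3H10T1/2 (1434002_at). It was 2.31-fold lower than Venus and 1.61-fold lower than C3H10T1/2. Its 4 probe sets, all measured, read lower than both controls. Their differences ran from −1.21 to −0.34 against Venus and from −0.69 to −0.05 against C3H10T1/2. Over the mean of its probe sets the difference from Venus was −0.79, less than 2-fold.

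The Foxn3 window (GRCm38.p6, minus strand, 250 bases before to 50 after the start site, 5′ to 3′) is shown because it holds the same motif as Foxp1, again with the reverse complement of TTTGAA in capitals, at position −227 from the start site.
Foxn3, chr12:99450025-99450324: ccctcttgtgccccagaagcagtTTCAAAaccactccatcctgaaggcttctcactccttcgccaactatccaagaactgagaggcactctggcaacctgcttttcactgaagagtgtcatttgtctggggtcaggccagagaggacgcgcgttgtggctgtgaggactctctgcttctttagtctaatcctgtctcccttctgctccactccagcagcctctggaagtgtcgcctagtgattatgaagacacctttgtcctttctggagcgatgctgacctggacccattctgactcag
Of the 22 measured genes 13 had a window, 15 windows in all. TTTGAA, searched on both strands like the other motifs, was found in 2 of these 15 (13.3%), against 17.9% of all 32851 windows. None of the 15 held TGTTTAC, a forkhead motif found in 3.65% of all windows, the interferon-stimulated response element (GAAA, any 2 bases, GAAA) found in 3.44%, or GACCACCCA, a Gli motif found in 0.253%. These matches describe letters in the windows and show no binding.

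The probe sets of Foxk2, which acts with Foxk1 in glycolysis and autophagy, gave differences of unlike size. Of its 5 measured probe sets 3 read below both controls, and none read above both. At 1428353_at, the probe set used, the values were 8.57 on the array labelled Venus-Mkx, 8.84 on Venus and 8.85 on C3H10T1/2. At 1452753_at they were 7.32 (labelled Venus-Mkx), 8.28 (Venus) and 8.39 (C3H10T1/2), and at 1428354_at 6.71 (labelled Venus-Mkx), 7.83 (Venus) and 7.71 (C3H10T1/2), and only the last of these passed 2-fold against both controls. The other 2 probe sets of Foxk2, near the floor, differed from Venus by −0.11 and 0.00. Counted by probe set, 3 of 47 measured forkhead probe sets (6.38%), all of Foxp2, were higher by at least 2-fold against both controls, beside 5.75% of all measured probe sets. Of the same 47, 5 (10.6%) were lower, beside 5.45%: 2 of Foxp1 and 1 each of Foxc2, Foxd1 and Foxk2.

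The remaining measured members of these subfamilies, and Foxq1 from outside them, differed little. Foxk1 had 8.05 on the array labelled Venus-Mkx, 7.69 on Venus and 8.02 on C3H10T1/2. Foxj3, a factor of muscle mitochondria, had 9.90 (labelled Venus-Mkx), 9.62 (Venus) and 9.80 (C3H10T1/2) at 1435362_at. Its other measured probe set, 1438220_at, lay near the floor and differed by −0.15 from both controls. Foxj2 had 8.21 (labelled Venus-Mkx), 7.92 (Venus) and 8.02 (C3H10T1/2). Foxn2 had 9.08 (labelled Venus-Mkx), 9.11 (Venus) and 9.11 (C3H10T1/2). Foxn4, a factor of retinal progenitors, and Foxq1, an epithelial factor, lay near the floor, with 4.70 (labelled Venus-Mkx), 4.70 (Venus) and 4.72 (C3H10T1/2) for Foxn4 and 4.25 (labelled Venus-Mkx), 4.25 (Venus) and 4.42 (C3H10T1/2) for Foxq1.

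The other 15 members did not reach the floor at the probe set used, with values between 2.66 and 4.25 on all arrays. They were Foxa1, Foxa2, Foxa3, Foxb1, Foxb2, Foxd3, Foxd4, Foxe3, Foxh1, Foxi1, Foxj1, Foxl1, Foxl2, Foxn1 and Foxp3. They include the FoxA factors of endoderm and notochord and Foxj1, the master factor of motile cilia. Below the floor a low transcript level cannot be told from background. Of 19 liver and gut endoderm genes on the array 4 were measured, and none was higher or lower than both controls, a number too small to read against 6.82% and 5.34% of all measured genes. Of 25 motile cilia genes 6 were measured, and 1 of these, beside 6.82% of all measured genes, was higher and none lower. It was Ccno, which encodes cyclin O of multiciliated cells, with 6.12 on the array labelled Venus-Mkx, 4.70 on Venus and 4.55 on C3H10T1/2.

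Genes around the mesenchymal factors differed in part. Of 12 measured hedgehog pathway genes 1 was higher and 3 were lower than both controls, beside 6.82% and 5.34% of all measured genes. Their median difference was −0.44 from Venus and −0.19 from C3H10T1/2, beside 0.00 from each for all measured genes. Cdon, a hedgehog co-receptor gene, was the higher one, with 9.67 on the array labelled Venus-Mkx, 7.50 on Venus and 7.99 on C3H10T1/2. The related co-receptor gene Boc had 6.70 (labelled Venus-Mkx), 8.11 (Venus) and 8.33 (C3H10T1/2). Hhat, whose enzyme adds palmitate to hedgehog ligands, had 4.12 (labelled Venus-Mkx), 6.59 (Venus) and 6.10 (C3H10T1/2) with the lowest of these under the floor, so its difference is not exact. Disp1, which encodes the protein that releases hedgehog ligands and was named after its values were seen, differed by −1.30 from both controls. Ptch1, a receptor and target gene of the pathway named in the same way, had 8.74 on the array labelled Venus-Mkx, 9.31 on Venus and 10.05 on C3H10T1/2. At the probe sets used, 2 of 9 measured sclerotome and paraxial mesoderm factors were higher and none was lower, beside the same 6.82% and 5.34%. Their median difference was 0.07 from Venus and 0.57 from C3H10T1/2. Other probe sets of Pax9 and Tbx18 differed from Venus by −1.51 and −1.03. These 2 genes were named after their values were seen. Meox1, a homeobox gene of the somite, had 8.64 on the array labelled Venus-Mkx, 4.08 on Venus, below the floor, and 4.58 on C3H10T1/2. Twist2, a basic helix-loop-helix gene of mesenchyme, had 8.94 (labelled Venus-Mkx), 6.94 (Venus) and 6.76 (C3H10T1/2).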

How the data were processed

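Total RNA of C3H10T1/2 cells, of Venus cells and of Venus-Mkx cells was made into labelled probe with the GeneChip kit for 3′ in vitro transcription, and 1 Affymetrix mouse genome array was hybridized per condition. The values as deposited by the authors were normalized, on a log2 scale, 1 per probe set and array. RMA is named in the submitters' processing notes (version not given in the sources used here), whereas the methods name MAS 5.0, whose signals are linear. The values, from 1.44 to 14.00, were therefore used as log2 values as they stood, without detection calls. The column medians were 4.39, 4.34 and 4.34 for Venus-Mkx, Venus and C3H10T1/2.

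Of 45101 probe sets, 64 controls were left out. Gene names came from the platform annotation, promoter sequences and gene order from RefSeq (GRCm38.p6), where 24 of the 37 forkhead genes had a promoter window. Sequences were 300 bases long. Differences were taken between arrays, with no test because each group has 1 array. The count rule was tested on simulated log2 changes of known size, which cannot show how often it errs with 1 array per condition. The members and lists were chosen with earlier results of these data known. Named were Mkx, every measured forkhead gene and, of each list, up to 2 genes at each end of the difference from the nearer control if past 2-fold. Other names are marked as chosen after their values were seen, apart from markers of other cell types. Alternatives changed the scale (median centring, quantile normalization), the choice of probe sets, the control, the fold (1.5-fold and 3-fold) and the floor, which was removed or raised to the 75th percentile. Signal over background limits low values. Python 3.11.15, NumPy 2.4.6, pandas 2.3.3 and matplotlib 3.10.9 were used.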

Additional observations from a re-analysis of the deposited data

How the results depend on the processing

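Foxp2 was the 1 gene counted as higher and Foxd1 stayed counted as lower under each alternative of the floor, the probe sets, the scale and the control, and Foxd1 also at each fold. At 3-fold the count of higher genes was 0 and that of lower genes 1. At 1.5-fold there were 4 higher (Foxo3, Foxo4, Foxp2 and Foxp4) and 4 lower genes (Foxc2, Foxd1, Foxn3 and Foxp1), and Foxf1 was the 1 gene lower in Venus than in C3H10T1/2. Against Venus alone 4 genes were lower, and after quantile normalization 1, because Foxc2 fell just short. The number of measured genes was 37 with no floor and 14 with the floor at the 75th percentile. The median of the family ran from −0.05 with median centring to 0.02 with the higher floor. Over the mean of the probe sets that reach the floor, a setting chosen after seeing the data, Foxp2 differed from Venus by 1.51, and over all its probe sets by 1.10. Of 154 differences of single genes recomputed under alternatives, 44 of them against C3H10T1/2 or the mean of the controls in place of Venus, 7 moved by more than 0.34, the SD of the differences between the 2 controls. These were 4 against C3H10T1/2 (Foxc1, Foxd2, Foxf1 and Foxn3) and 3 that averaged probe sets (Foxn3 under both averages, and Foxp2). With C3H10T1/2 as the control, Foxc1 (0.23), Foxd2 (−0.29) and Foxf1 (−0.32) changed sign. None of the 35 differences that belong to a gene at least 2-fold from Venus changed sign. Many of the 154 could hardly move. Median centring shifted every gene by the same small amount, and genes with 1 probe set could not change with the choice of probe sets. Probe sets near the floor limit what can be read for Foxp4, Foxn4 and Foxq1.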

Other observations

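Probe sets annotated with several genes were left out of the family. The 1453107_s_at probe set, shared by Tex52, Pebp1 and Foxm1, had 7.32 on the array labelled Venus-Mkx, 7.87 on Venus and 7.81 on C3H10T1/2. The 1444226_at probe set, shared by Gm38485 and Foxo3, had 4.47 (labelled Venus-Mkx), 4.47 (Venus) and 4.37 (C3H10T1/2) and lay near the floor.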
